A study of Rattus norvegicus with 24 samples.

Results

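Dhcr7, Msmo1 and Mvd encode 3 enzymes of cholesterol synthesis, and their probes were followed through paired array comparisons of rat kidney RNA. The genes were chosen by symbol, with the older symbol of Msmo1 included. The annotation assigns 6 probes to them, of which 3 had a value, 1 for each gene. They are 3 of the 1422 genes with a single symbol and a measured probe, and their probes are 3 of 1766 measured.

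Each array compared total RNA of one rat labelled with Cy5 and of another labelled with Cy3. The titles pair a rat marked LS with a rat marked HS, read here as low and high salt from the subject of the study. The 4 groups were SS rats at 3 days, SS rats overnight, SS-13BN/Mcw rats at 3 days and SS-13BN/Mcw rats overnight, each with 3 rat pairs on 6 arrays. SS is the Dahl salt-sensitive strain. SS-13BN/Mcw is the consomic strain in which chromosome 13 of SS is replaced by that of the Brown Norway rat. No drug, transgene or pooling is named for any group, and neither sex nor age is given in the labels. The same low-numbered rats appear in the titles of both times of a strain, so both times of a strain may share a rat.

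Cholesterol is built from acetyl-CoA. The mevalonate part of the pathway makes isoprenoid units, which are joined to squalene, and squalene is closed to lanosterol and trimmed to cholesterol. The genes of the pathway are known to be switched on together by the transcription factor SREBP-2 when cell sterols are low. Mvd, mevalonate diphosphate decarboxylase, acts early and makes isopentenyl diphosphate, the first isoprenoid unit. Msmo1, a methylsterol oxidase, acts after lanosterol and starts the removal of the methyl groups at carbon 4 of the sterol ring. Dhcr7, the 7-dehydrocholesterol reductase, acts last and makes cholesterol from 7-dehydrocholesterol, which is also the precursor of vitamin D. The kidney makes cholesterol for its own membranes, and its proximal tubule also takes up filtered and circulating lipids.

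The value of a gene in a rat pair is the mean of its deposited log ratios on both dye orientations, after each array was centred on its median. The sources used here give neither the base of the logarithm nor which rat is the numerator. Values are therefore given as positive or negative, in log-ratio units, without a fold and without naming the salt side that is higher. Arrays held between 877 and 1412 probe values. The log ratios of the swapped arrays of a pair were correlated after removal of the mean of the other arrays of the same orientation. This correlation was above 0 in every one of the 12 pairs (r between 0.169 and 0.825). Without the removal, r was between -0.059 and 0.749 and lay below 0 in 4 pairs. From the correlations after removal, the ratios were taken as already turned to one direction between the rats. Turning them by dye instead changed the sign of 16 of the 27 values fitted for the 3 genes, so every sign below rests on that reading. With 3 pairs a group, the number of rat pairs limits the precision. Ratios give no level, so the labelled tissue could be checked only by which probes held values. Of 24 proximal tubule markers 15 were measured. Of 10 adrenal markers 3 were measured, on 3, 5 and 12 of the 24 arrays. Of 8 fat markers 2 were measured, Lipe on 3 and Fabp4 on 24 arrays. These counts are over listed genes, so a gene without a probe on the array also counts as not measured. They thus cannot settle the tissue.

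The promoters of the 3 genes are shown so that motifs known from genes of this pathway can be read in them. They are the 250 bases before the start of each gene in RefSeq on the rat assembly GRCr8, on the strand of the gene, from the Brown Norway reference and not from the SS strains. Capitals mark the CCAAT box, written as CCAAT or, on the other strand, ATTGG. Mvd lies at chr19:67414975-67415224 on the minus strand, Msmo1 at chr16:29746863-29747112 on the plus strand and Dhcr7 at chr1:208444184-208444433 on the plus strand.
Mvd: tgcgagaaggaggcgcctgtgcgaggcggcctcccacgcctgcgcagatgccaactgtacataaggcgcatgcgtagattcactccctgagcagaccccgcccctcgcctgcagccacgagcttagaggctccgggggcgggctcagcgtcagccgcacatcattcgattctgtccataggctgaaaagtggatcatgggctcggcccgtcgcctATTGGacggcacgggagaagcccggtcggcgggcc
Msmo1: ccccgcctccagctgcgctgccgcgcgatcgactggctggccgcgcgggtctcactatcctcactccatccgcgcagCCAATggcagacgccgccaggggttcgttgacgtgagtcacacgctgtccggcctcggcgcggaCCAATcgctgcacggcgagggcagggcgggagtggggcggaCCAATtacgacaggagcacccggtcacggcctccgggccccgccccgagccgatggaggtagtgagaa
Dhcr7: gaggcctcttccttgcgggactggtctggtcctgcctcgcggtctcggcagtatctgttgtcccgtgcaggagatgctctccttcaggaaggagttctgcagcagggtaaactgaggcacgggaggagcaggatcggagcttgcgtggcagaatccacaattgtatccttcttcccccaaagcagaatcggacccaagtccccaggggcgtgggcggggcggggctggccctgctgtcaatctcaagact
Msmo1 holds 3 CCAAT boxes, at 173 to 169, 109 to 105 and 68 to 64 bases before the start. Mvd holds 1, on the other strand, at 35 to 31 bases before the start, and Dhcr7 holds 0. Of 33469 rat promoter windows of the same length, 34.0% hold at least 1 CCAAT box and 2.52% hold 3 or more. A GC box, GGGCGG on either strand, matched 2 times in Mvd, 3 times in Msmo1 and 2 times in Dhcr7, of which the matches in Dhcr7 overlap by a base, and 30.5% of windows hold one. The sterol regulatory element TCACNCCAC on either strand matched 0 times in the 3 windows and in 0.974% of all windows. Of the 16 listed cholesterol genes with a window, these 3 genes among them, 13 held a CCAAT box, 14 a GC box and 0 this spelling of the sterol element. A match is a run of letters and not a measured site, and these arrays hold no binding data.

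Mvd, the earliest of the 3 enzymes in the pathway, had both orientations in 9 of the 12 pairs. In SS rats at 3 days, pairs 1 and 2 had 0.043 and -0.26, and pair 3 had no value. In SS rats overnight, pairs 1, 2 and 3 had 0.45, 0.21 and 0.45. The SS pairs overnight were all positive and lay wholly above the SS pairs at 3 days. For SS-13BN/Mcw, pairs 1 and 3 had 0.22 and -0.14 at 3 days. Overnight, pairs 1 and 3 of SS-13BN/Mcw had 0.15 and 0.29. Pair 2 of SS-13BN/Mcw had 1 array at each time, with 0.088 at 3 days and 0.53 overnight, and gave no pair value. Thus all 5 overnight pairs were positive, while the 4 pairs at 3 days were split between both sides.

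Mvd averaged -0.11 ± 0.21 in SS rats at 3 days (SD, n = 2) and 0.37 ± 0.13 in SS rats overnight (SD, n = 3). Its SS-13BN/Mcw means were 0.04 ± 0.26 at 3 days and 0.22 ± 0.095 overnight (SD, n = 2 each). The SS overnight mean was the Mvd value with the smallest p, at rank 38 of 1139 probes, with an adjusted p of 0.117 by limma. It was past the threshold of 0.05 when arrays were scaled to one spread (0.41, adjusted p = 0.0301), after quantile normalization (0.39, adjusted p = 0.0355) and when single arrays were fitted (0.37, adjusted p = 0.0388). The single-array fit, here and below, had a consensus correlation of -0.053 within rat pairs. It thus counted the swapped arrays of a pair as separate replicates, which they are not. Mvd was read unevenly by the dyes. Its ratio was larger with the low-numbered rat in Cy5 in 6 of 9 pairs, and the orientations of pair 1 of SS-13BN/Mcw at 3 days gave -0.22 and 0.66. This was not particular to Mvd. The ratio of Msmo1 was larger with the high-numbered rat in Cy5 in 10 of 12 pairs, and that of Dhcr7 in 8 of 12.

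Msmo1 had a value on every array. In SS rats at 3 days, pairs 1, 2 and 3 had 0.0081, -0.52 and -0.24. The SS pairs overnight had 0.54, 0.26 and 0.036. As for Mvd, the SS pairs at 3 days lay wholly below the SS pairs overnight, although the nearest values, 0.0081 and 0.036, were close. The SS-13BN/Mcw pairs had 0.025, 0.20 and -0.12 at 3 days. Overnight the SS-13BN/Mcw pairs had 0.43, 0.42 and 0.087. All 6 overnight pairs were positive, and in SS-13BN/Mcw the times overlapped.

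Msmo1 averaged -0.25 ± 0.26 in SS rats at 3 days and 0.28 ± 0.25 in SS rats overnight (SD, n = 3 each). Its SS-13BN/Mcw means were 0.04 ± 0.16 at 3 days and 0.31 ± 0.20 overnight (SD, n = 3 each). The mean with the smallest p was that of SS-13BN/Mcw overnight, where the adjusted p was 0.104 by limma. With single arrays fitted it was past the threshold (0.31, adjusted p = 0.0218). The SS means moved with single pairs: without pair 1 the overnight mean was 0.15 (adjusted p = 0.899), and at 3 days it was -0.12 without pair 2 and -0.38 without pair 1. Pair 3 had the lowest value of the 3 overnight pairs in both strains.

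Dhcr7, the last enzyme, also had a value on every array and was the member with the widest range of pair values, between -0.96 and 0.22. In SS rats at 3 days, pairs 1, 2 and 3 had -0.23, -0.28 and 0.22. Overnight the SS pairs had 0.20, 0.16 and -0.018. Both groups of SS rats held values on either side of 0. The SS-13BN/Mcw pairs had -0.15, -0.33 and -0.95 at 3 days. Overnight the SS-13BN/Mcw values were 0.10, -0.45 and -0.96. Pair 3 of SS-13BN/Mcw was the lowest at both times, and 5 of the 6 pairs of that strain were negative.

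Dhcr7 averaged -0.09 ± 0.27 in SS rats at 3 days and 0.11 ± 0.12 in SS rats overnight (SD, n = 3 each). Its SS-13BN/Mcw means were -0.48 ± 0.42 at 3 days and -0.44 ± 0.53 overnight (SD, n = 3 each). Neither SS-13BN/Mcw mean was past the threshold by limma, with adjusted p of 0.208 at 3 days and 0.128 overnight. With single arrays fitted, where swapped arrays count as separate replicates, both were past it, at adjusted p of 0.0377 and 0.0272. The overnight mean was -0.71 without pair 1 (adjusted p = 0.0382) and -0.18 without pair 3 (adjusted p = 0.613). At 3 days it was -0.24 without pair 3 (adjusted p = 0.872). Pair 3 thus carried much of both SS-13BN/Mcw means.

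**Figure D1:**
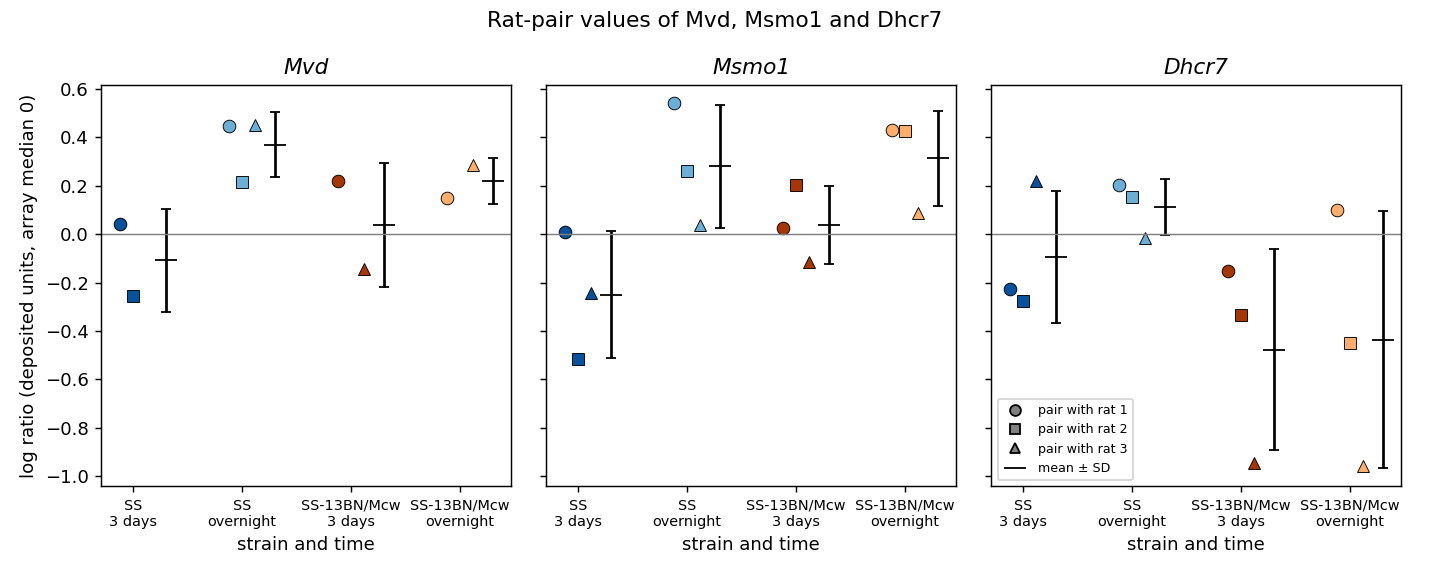
Log ratio of Mvd, Msmo1 and Dhcr7 (vertical axis, deposited units with each array's median at 0) in the 4 strain and time groups (horizontal axis), with 1 symbol per rat pair, its shape giving the low-numbered rat, and black bars for the mean ± SD. The overnight pairs of Msmo1 and Mvd all lie above 0, and the SS-13BN/Mcw pairs of Dhcr7 reach -0.96.

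Of the 3 members 0 were past the threshold in any group by limma with Benjamini-Hochberg adjustment over all tested probes. The share of all tested probes that passed was 0.34% in SS rats at 3 days, 1.14% in SS rats overnight, 2.98% in SS-13BN/Mcw rats at 3 days and 10.5% in SS-13BN/Mcw rats overnight, the last made of 3.18% on the positive and 7.36% on the negative side. At an unadjusted p under 0.05 the members numbered 0 of 3 in SS rats at 3 days, where 12.2% of all probes were under it. In SS rats overnight they numbered 2 of 3, Msmo1 and Mvd, against 15.3% of all probes. In SS-13BN/Mcw rats at 3 days they numbered 1 of 3, Dhcr7, against 16.6%. In SS-13BN/Mcw rats overnight they numbered 2 of 3, Dhcr7 and Msmo1, against 30.5%.

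Averaged over the 4 groups, Mvd stood at 0.13 ± 0.056, Msmo1 at 0.10 ± 0.058 and Dhcr7 at -0.22 ± 0.090 (SE of the limma estimate). Mvd and Msmo1 lay on the positive side and Dhcr7 on the negative side, and 0 of 3 were past the threshold, with adjusted p of 0.110 for Mvd, 0.230 for Msmo1 and 0.0812 for Dhcr7. Of all tested probes 28.5% were past it, and at an unadjusted p under 0.05 it was 2 of 3 members, Mvd and Dhcr7, against 42.7% of all probes. The Dhcr7 mean was past the threshold with single arrays fitted (-0.22, adjusted p = 0.0148), without SS 3 days pair 3 (-0.26, adjusted p = 0.0472) and without SS-13BN/Mcw overnight pair 1 (-0.29, adjusted p = 0.0209).

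The strain comparison asks whether the salt response of the salt-sensitive strain differs from that of the strain with the substituted chromosome. None of the 3 genes lies on that chromosome in the rat assembly GRCr8. Of the 16 listed cholesterol genes with a promoter window, 2 lie on it, Hsd17b7 and Lbr. Hsd17b7 had both orientations in 2 pairs and was not tested, and Lbr was not measured. At 3 days the difference of SS minus SS-13BN/Mcw was -0.15 for Mvd (95% confidence interval -0.52 to 0.23), -0.29 for Msmo1 (-0.65 to 0.07) and 0.38 for Dhcr7 (-0.17 to 0.94). Overnight it was 0.15 for Mvd (-0.19 to 0.50), -0.03 for Msmo1 (-0.39 to 0.33) and 0.55 for Dhcr7 (-0.004 to 1.10). All 6 intervals include 0, and they also hold differences as large as the group means themselves.

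By limma the strain difference was past the threshold for 0 of 3 members at each time, and for 0% of all tested probes at each time. The smallest adjusted p was 0.590 at 3 days, for Msmo1, and 0.898 overnight, for Dhcr7. At an unadjusted p under 0.05 there were 0 of 3 members at either time, against 8.37% of probes at 3 days and 5.03% overnight. The largest strain gap among the members was that of Dhcr7 overnight, and even there the groups overlapped: the highest SS-13BN/Mcw pair, at 0.10, lay above the lowest SS pair, at -0.018. The overnight gap of Dhcr7 was 0.29 without SS-13BN/Mcw pair 3 (0.82 without pair 1), and the gap at 3 days was 0.15 without SS-13BN/Mcw pair 3 and 0.23 without SS pair 3. At 3 days the gap of Msmo1 was -0.15 without SS pair 2. The Mvd gap at 3 days changed sign with single pairs (-0.33 to 0.035). Pair values of the strains did not overlap for 0 of 3 members at either time. Of all tested probes, SS lay wholly above for 8.37% and wholly below for 7.4% at 3 days, and wholly above for 7.69% and wholly below for 3.23% overnight. Each title also holds a running number, which it does not name and which is read here as a slide number. At 3 days the SS arrays carry 36 to 41 and the SS-13BN/Mcw arrays 28 to 35. Overnight the SS arrays carry 18 to 23 and the SS-13BN/Mcw arrays 24 to 43, so the order of these numbers and the strain cannot be told apart at either time.

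Between the times, the pair values of Msmo1 and Mvd in SS rats at 3 days lay below those overnight, and neither difference passed after adjustment. The difference of 3 days minus overnight in SS rats was -0.53 for Msmo1 (95% confidence interval -0.89 to -0.17), -0.48 for Mvd (-0.82 to -0.13) and -0.21 for Dhcr7 (-0.77 to 0.35). Of 880 probes tested, Msmo1 had the third and Mvd the fourth smallest p, at 0.00756 and 0.0124. After adjustment over all probes the p was 0.988 for all 3 genes, and 0 of 3 members passed, as did 0% of all tested probes. At an unadjusted p under 0.05 there were 2 of 3 members against 1.93% of probes. With the shared low-numbered rat as a replicate block the adjusted p was 0.598 for Msmo1 and 0.688 for Mvd. Pair values at 3 days lay wholly below those overnight for 2 of 3 members, Msmo1 and Mvd, and for 4.89% of the probes tested. They lay wholly above for 0 of 3 members and 2.61% of probes.

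In SS-13BN/Mcw rats the same differences had the same sign and were smaller. They were -0.28 for Msmo1 (-0.64 to 0.08), -0.18 for Mvd (-0.56 to 0.20) and -0.04 for Dhcr7 (-0.60 to 0.52). By limma 0 of 3 members passed, with adjusted p of 0.540 or more, as did 0% of all probes. At an unadjusted p under 0.05 it was 0 of 3 against 11.3% of probes. The times overlapped for all 3 members, while pair values at 3 days lay wholly below for 11.7% and wholly above for 11% of the probes tested. Taken by the low-numbered rat, Msmo1 was lower at 3 days than overnight for all 3 numbers in each strain. The differences were -0.53, -0.78 and -0.28 in SS and -0.41, -0.22 and -0.20 in SS-13BN/Mcw. Mvd was lower for 2 of 2 numbers in SS and 1 of 2 in SS-13BN/Mcw, and Dhcr7 for 2 of 3 and 1 of 3. In SS rats the counts of Msmo1 and Mvd follow from their pair values not overlapping and add nothing to that. The share of all probes lower for every number was not counted. Of all tested probes the time difference was positive for 40.9% in SS rats and 50.6% in SS-13BN/Mcw rats. Whether the time difference itself differed between the strains was not tested. The SS arrays at 3 days carry the title numbers 36 to 41, read as slide numbers, apart from those overnight. The order of these numbers and time thus cannot be told apart in SS rats.

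**Figure D2:**
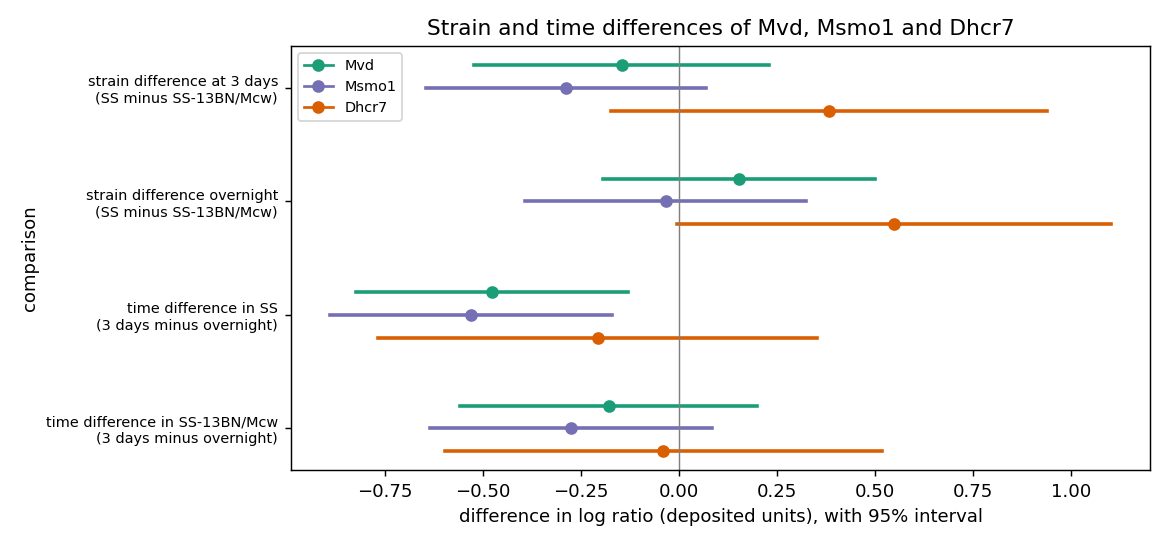
Strain and time differences of Mvd, Msmo1 and Dhcr7 from limma (points) with 95% confidence intervals (lines), in log-ratio units. The intervals of Msmo1 and Mvd for 3 days minus overnight in SS rats end below 0, at -0.17 and -0.13, and all others shown include 0.

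Taken by time over both strains, Msmo1 had a lowest, median and highest pair value of -0.52, -0.05 and 0.20 at 3 days, with 3 of 6 pairs positive. Overnight the values were 0.036, 0.34 and 0.54, with 6 of 6 positive. Mvd had -0.26, -0.05 and 0.22 at 3 days and 0.15, 0.29 and 0.45 overnight. Dhcr7 did not share this: it had -0.95, -0.25 and 0.22 at 3 days, and -0.96, 0.04 and 0.20 overnight, with 3 of 6 overnight pairs positive. Of the 3 members 2 were thus positive in every measured overnight pair, as were 15.1% of all probes with at least 5 overnight pairs. Of 9 matrix and fibroblast markers 7 were measured, and the median estimate of those tested was 0.40 in SS rats at 3 days (4 of 5 positive), 0.36 in SS rats overnight (5 of 6), 0.03 in SS-13BN/Mcw rats at 3 days (3 of 5) and 0.38 in SS-13BN/Mcw rats overnight (5 of 5). Col3a1, Col1a1 and Vim of these passed in the mean of the 4 groups, 3 of 5 tested, against 13.4% of all probes on the positive side. The pair median of the 4 markers read in every pair ranged between -0.031 and 0.88 in SS pairs at 3 days, 0.087 and 0.68 in SS pairs overnight, -0.12 and 0.12 in SS-13BN/Mcw pairs at 3 days, and 0.20 and 0.75 in SS-13BN/Mcw pairs overnight. The pair median of these markers was thus positive in every overnight pair of both strains, as Msmo1 and Mvd were in every overnight pair they had. In SS rats at 3 days it was positive in pairs 1 and 2 and was -0.031 in pair 3. The part of these markers in the overnight values of Msmo1 and Mvd was not tested.

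The pathway was read from a list of 21 cholesterol synthesis genes, of which 9 were measured. Dhcr7, Msmo1 and Mvd are among these 9, so counts and medians of the list include them. Cyp51, the lanosterol demethylase, acts shortly before Msmo1 and was, like it, positive in all 6 overnight pairs. Its 12 pairs ranged between -0.33 and 0.63, and its lowest, median and highest values were -0.33, 0.04 and 0.35 at 3 days and 0.23, 0.32 and 0.63 overnight. It averaged 0.06 ± 0.27 in SS rats at 3 days, 0.38 ± 0.21 in SS rats overnight, 0.01 ± 0.31 in SS-13BN/Mcw rats at 3 days and 0.36 ± 0.13 in SS-13BN/Mcw rats overnight (SD, n = 3 each). Sqle, squalene epoxidase, was positive in all 10 pairs it had, with 0.049, 0.15 and 0.32 at 3 days and 0.18, 0.29 and 0.56 overnight. Both were read unevenly by the dyes. In every overnight pair the ratio of Cyp51 was larger with the low-numbered rat in Cy5, and that of Sqle with the high-numbered rat. At 3 days SS pair 2 went the other way for both. The 4 list genes positive in every overnight pair were Msmo1, Mvd, Cyp51 and Sqle, out of 8 with at least 5 overnight pairs, against 15.1% of all such probes. Of these 4, Msmo1 and Mvd are members already counted above. Negative in every one were 0 of 8, against 10.7% of all such probes.

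The other measured genes of the list varied more or were read in fewer pairs. Idi1, which interconverts the isoprenoid units, averaged 0.21 ± 0.34 in SS rats overnight and 0.34 ± 0.54 in SS-13BN/Mcw rats overnight (SD, n = 3 each). Mvk, mevalonate kinase, averaged 0.03 ± 0.19 in SS rats overnight (SD, n = 3). Lss, lanosterol synthase, was negative on average in every group it had, with -0.11 ± 0.14 in SS rats overnight (SD, n = 3). Hsd17b7, which reduces the sterol ketone formed after Msmo1, had both orientations in 2 pairs and was not tested. Overnight, 1 of 3 Lss pairs was positive in SS rats and 1 of 2 in SS-13BN/Mcw rats. The limma confidence intervals of Lss overnight held both signs, at -0.37 to 0.14 in SS rats and -0.48 to 0.16 in SS-13BN/Mcw rats. Intervals this wide cannot tell whether Lss differed in direction from the other enzymes overnight.

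By limma 0 list genes were past the threshold in a single group, of 7 tested in SS rats at 3 days, 8 in SS rats overnight, 5 in SS-13BN/Mcw rats at 3 days and 8 in SS-13BN/Mcw rats overnight. The median estimate of the list was -0.09, 0.25, 0.04 and 0.27 in these groups, while the median over all tested probes lay between -0.0054 and 0.0071. The -0.09 is the estimate of Dhcr7 itself, and the 0.04 that of Msmo1. For 3 days minus overnight all 7 tested genes were negative in SS rats and all 5 in SS-13BN/Mcw rats, with medians of -0.21 and -0.18. Both counts include Dhcr7, Msmo1 and Mvd, and the other genes among the 5 were only Cyp51 and Sqle. The medians are the estimates of Dhcr7 in SS and of Mvd in SS-13BN/Mcw rats. Of all tested probes 40.9% were positive in SS rats and 50.6% in SS-13BN/Mcw rats. In the mean of the 4 groups, Sqle (0.25, adjusted p = 0.00619) and Cyp51 (0.20, adjusted p = 0.0283) were past the threshold on the positive side, 2 of 5 genes tested, against 13.4% of all probes on that side. The Cyp51 call did not hold with the low-numbered rat as a replicate block (adjusted p = 0.0546) or without any of 5 single pairs (adjusted p between 0.0602 and 0.0740).

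**Figure D3:**
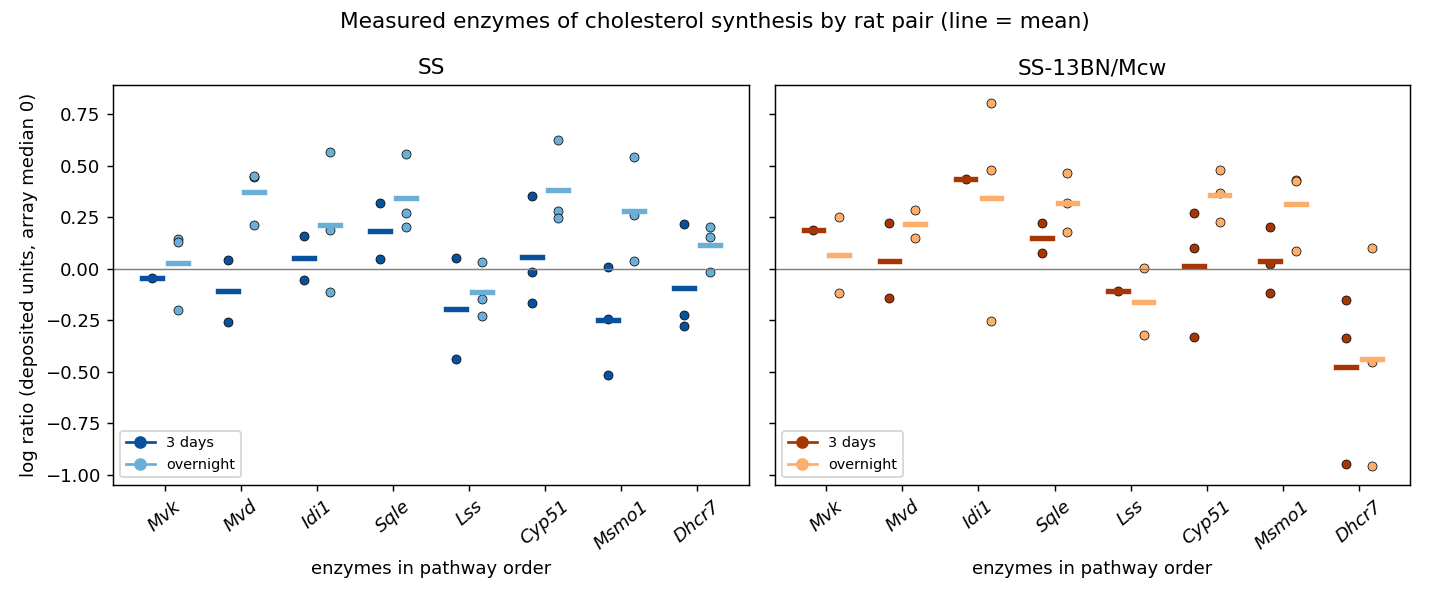
Log ratios (vertical axis, deposited units with each array's median at 0) of 8 measured cholesterol synthesis enzymes in pathway order (horizontal axis), with SS rats in the left panel and SS-13BN/Mcw rats in the right, 1 point per rat pair and a line at the mean, dark for 3 days and light for overnight. Msmo1, Mvd, Cyp51 and Sqle are above 0 in every overnight pair shown, and Dhcr7 has the lowest values, in SS-13BN/Mcw.

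Genes of sterol control and transport formed another list, of 36 genes with 8 measured. In the mean of the 4 groups 4 were tested. Apoe, the lipoprotein ligand for cholesterol uptake, was past the threshold on the positive side (0.44, adjusted p = 0.0135), and Pgrmc1, a haem-binding membrane protein, on the negative side (-0.16, adjusted p = 0.0199). Of all probes 13.4% passed on the positive and 15.1% on the negative side. Without SS overnight pair 1 the Pgrmc1 value was -0.14 with an adjusted p of 0.0578. Scp2, a sterol carrier, and Dbi, which binds acyl-CoA, had -0.09 and 0.01 and did not pass. Apoe averaged 0.54 ± 0.63 in SS rats at 3 days and 0.60 ± 0.49 in SS rats overnight (SD, n = 3 each). In SS-13BN/Mcw rats it averaged -0.03 ± 0.13 at 3 days and 0.67 ± 0.50 overnight (SD, n = 3 each), so its spread was wide in the groups where it was high. Scarb1, the receptor for high-density lipoprotein, Lcat, which esterifies plasma cholesterol, and the oxysterol receptor Nr1h2 were read in 6, 5 and 8 pairs. They averaged 0.05 ± 0.028 (n = 3), 0.05 ± 0.16 (n = 3) and -0.04 ± 0.42 (n = 2) in SS rats overnight (SD). In SS-13BN/Mcw rats overnight Scarb1 averaged 0.24 ± 0.25 (SD, n = 2), Lcat had 0.0047 in 1 pair, and Nr1h2 averaged -0.22 ± 0.11 (SD, n = 3) with 3 of 3 pairs negative. Apoa1, an apolipoprotein, had both orientations in 0 pairs. In each of the 4 groups 0 of these genes passed.

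Lists of pathways that branch from the same precursors held few calls. Of 17 fatty acid synthesis genes 7 were measured. Of these Acsl3, an acyl-CoA synthetase, passed in SS-13BN/Mcw rats at 3 days (0.43, adjusted p = 0.0293), where 0.662% of all probes passed on the positive side. Of 10 protein prenylation genes, which use isoprenoids of the Mvd branch, 4 were measured. Fntb, a farnesyltransferase subunit, passed in SS rats overnight (0.51, adjusted p = 0.0316), where 0.966% of all probes passed on the positive side, and Rabggtb, a subunit of the enzyme that prenylates Rab proteins, in the mean of the 4 groups (0.11, adjusted p = 0.0450), where 13.4% did. The prenylation genes were named after their values were seen.

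Among the genes whose pair values followed each member most closely, those of Msmo1 included another enzyme of the pathway. Over 12 pairs and 597 other named genes with all 12 values, Cyp51 had the highest Pearson correlation with Msmo1 (r = 0.794, Spearman's rho 0.762), followed by Zranb2 (0.777) and Ceacam4 (0.757). Within SS rats the Cyp51 correlation was 0.952 and within SS-13BN/Mcw rats 0.752 (6 pairs each), and 0.763 without the 2 pairs farthest from the median of Cyp51. Mvd, over its 9 pairs and 627 genes, was most like Nsfl1c (0.824), Mfn2 (0.816) and Ceacam4 (0.800). Cyp51 stood sixth (0.758, rho 0.483) and Msmo1 seventh (0.732, rho 0.650). Without the 2 pairs farthest from the median of Cyp51 its correlation with Mvd was 0.196. Without the 2 farthest from the median of Msmo1 that of Msmo1 was 0.277, so each depended on the pairs left out. As deviations from the group means the correlation with Mvd was 0.766 for Cyp51 and 0.369 for Msmo1. All points share arrays and centring, and those of a strain may share a rat between times, and these values are descriptions without a test.

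**Figure D4:**
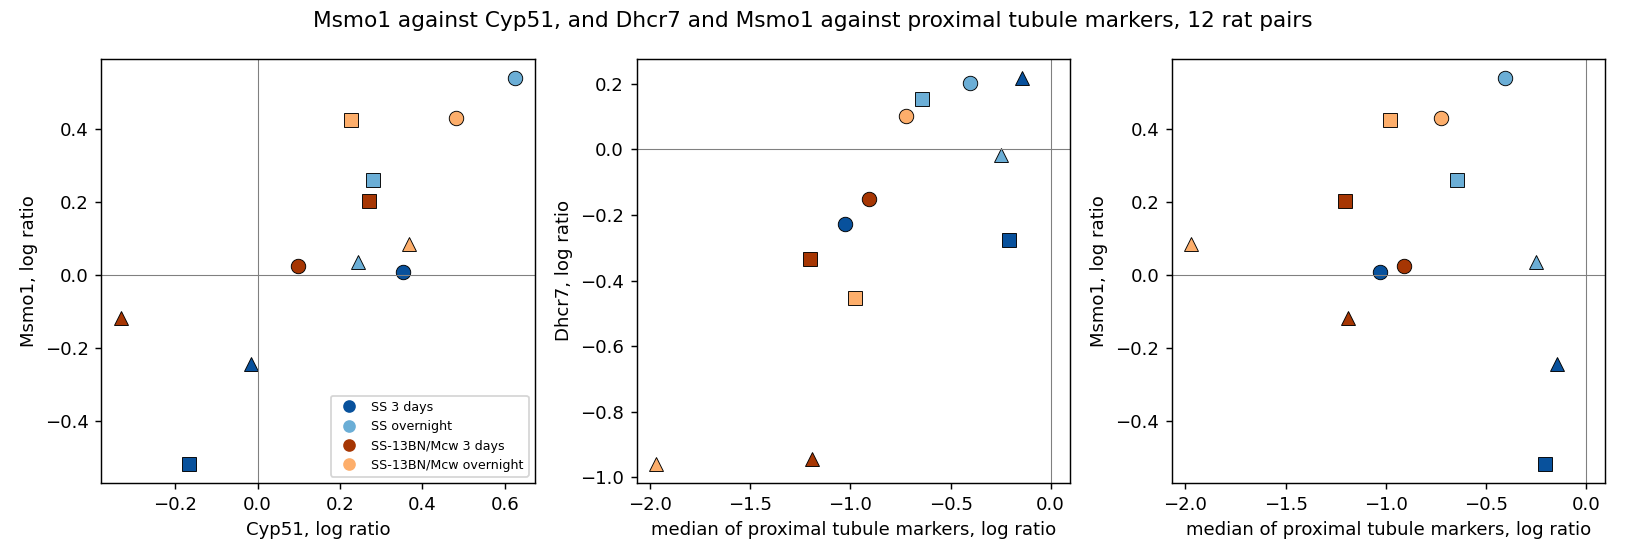
Log ratios of Msmo1 against Cyp51 (left), of Dhcr7 against the median of 8 proximal tubule markers (middle) and of Msmo1 against that median (right), in deposited units, with 1 symbol per rat pair coloured by strain and time. Msmo1 is higher where Cyp51 is higher (r = 0.794), Dhcr7 is lower where the marker median is lower (r = 0.787), and Msmo1 has r = -0.211 with that median.

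For Dhcr7 the list was another. Its most similar genes over 12 pairs were Nedd8 (r = 0.935), Capn2 (0.905) and Slc15a2 (0.900), the last a peptide transporter of the proximal tubule. Cyp51 stood at rank 139 (0.395) and Msmo1 at rank 198 (0.222) among 597. Within a strain Dhcr7 and Msmo1 were closer, at 0.581 in SS and 0.612 in SS-13BN/Mcw rats (6 pairs each). Without the 2 pairs farthest from the median of Dhcr7 they had 0.152. As deviations from the group means they had 0.523 over 12 pairs, and Msmo1 with Mvd had 0.369 over 9 pairs. Dhcr7 with Mvd had 0.413 over 9 pairs, 0.705 without the 2 farthest and 0.186 as deviations from the group means. Slc15a2 averaged -0.39 ± 0.33 in SS rats at 3 days and -0.21 ± 0.11 in SS rats overnight. It averaged -0.93 ± 0.20 in SS-13BN/Mcw rats at 3 days and -0.89 ± 0.47 in SS-13BN/Mcw rats overnight (SD, n = 3 each). As for Dhcr7, its SS means lay above its SS-13BN/Mcw means at each time.

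Markers of the proximal tubule had, like Dhcr7, lower medians in SS-13BN/Mcw than in SS rats. Of those tested, 0 of 12 were past the threshold on the negative side in SS rats at 3 days and 0 of 14 in SS rats overnight, against 8 of 14 in SS-13BN/Mcw rats at 3 days and 12 of 15 in SS-13BN/Mcw rats overnight. For the strain difference itself 0 of 12 passed at 3 days and 0 of 14 overnight, with median differences of SS minus SS-13BN/Mcw of 0.58 and 0.72. In the groups 0%, 0.176%, 2.32% and 7.36% of all probes passed on the negative side. Not every marker was negative: 1 of 12, 2 of 14, 2 of 14 and 2 of 15 of those tested were positive in these groups. In the mean of the 4 groups 11 of 12 tested passed on the negative side and 1 on the positive side. Of all probes 15.1% and 13.4% did so. The median over the 8 markers with a value in every pair ranged between -1.03 and -0.15 in SS pairs at 3 days and between -0.64 and -0.25 in SS pairs overnight. In SS-13BN/Mcw pairs it ranged between -1.20 and -0.91 at 3 days and between -1.97 and -0.72 overnight. Over the 12 pairs it correlated with Dhcr7 at r = 0.787 (rho 0.769), at 0.288 within SS rats and at 0.796 within SS-13BN/Mcw rats (6 pairs each), and at 0.597 without the 2 farthest pairs. Taken singly, these 8 markers had r between -0.071 (Aqp1) and 0.900 (Slc15a2) with Dhcr7. With Msmo1 the marker median correlated at -0.211, at -0.356 within SS rats and at 0.412 within SS-13BN/Mcw rats. With Mvd it correlated at 0.023 over 9 pairs and at 0.945 without the 2 farthest, so that value too depended on single pairs. The part of these markers in the Dhcr7 values was not tested, and in kidney RNA fewer cells of a type and less RNA per cell cannot be told apart.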

How the data were processed

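Total RNA of rat kidney was compared on 24 arrays with 2 channels. Per the labels and the table's header, the deposited table holds 1 log ratio (not stated to be log2 or another base) per probe and array, and how the authors made it is not stated there. The deposited ratios could not be named more closely than as other values: their array means were near 0 (at most 0.00082) and their medians were not (at most 0.067 in size).

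Groups and rat pairs came from the array titles. Arrays were centred on their median, and swapped arrays of a pair were averaged. All probes were fitted with limma (lmFit and eBayes, version 3.58.1, R 4.3.3) with 1 coefficient per group over 12 pairs, which share 1 estimate of the spread. Tests were 2-sided with Benjamini-Hochberg adjustment over tested probes at 0.05. Testing a probe required both orientations in at least 2 of the 3 pairs of every group compared. A pair without both orientations was dropped for that probe. The p-values thus reflect variation between rat pairs. Gene symbols came from the array's annotation, and 1421 of 1426 single-symbol probes were updated by gene number. Figures were drawn with matplotlib 3.10.9 (Python 3.11.15).

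The 3 genes, the gene lists and the alternatives were chosen with earlier results of these data known. Named genes were the 3 members, the measured genes of the cholesterol and sterol lists, fatty acid synthesis genes past the threshold, and for each member the 3 genes most correlated with it. Low-numbered rats recur in the titles at both times of a strain. Deviations from the group mean correlated between times at a mean r of 0.409 in SS and 0.297 in SS-13BN/Mcw for the same rat number (lowest 0.0592), so pairs were taken as linked, and a fit adding this rat as replicate block (consensus correlation 0.275) was an alternative. Other alternatives were the values as deposited, scaling, quantile normalization, turning arrays by dye, single arrays with the rat pair as a random effect (statmod 1.5.0), all 3 pairs required, and leaving out each pair. In the single-array fit the consensus correlation was -0.0529, so swapped arrays of a pair counted as separate replicates. The procedure was tested on simulated data.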

Additional observations from a re-analysis of the deposited data

How the results depend on the processing

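Of 505 values of the 3 genes under alternatives, 467 kept their sign and side of the threshold, 27 changed sign and 11 came past the threshold. The causes were not tested. With arrays turned by dye, 16 of 27 changed sign: Mvd became 0.13 (SS, 3 days), -0.14 (SS, overnight), -0.19 (SS-13BN/Mcw, 3 days), -0.21 (SS-13BN/Mcw, overnight), 0.33 (strain, 3 days), 0.27 (time, SS), 0.014 (time, SS-13BN/Mcw) and -0.10 (mean), Msmo1 became 0.074 (SS, 3 days), 0.038 (strain, overnight) and 0.085 (time, SS-13BN/Mcw), and Dhcr7 became 0.051 and 0.16 (SS-13BN/Mcw, 3 days and overnight), -0.071 and -0.15 (strain, 3 days and overnight) and 0.050 (mean). The Msmo1 mean passed at 0.090, and the Cyp51 mean became -0.15. Mvd in SS overnight passed when scaled (0.41), by quantiles (0.39) and with single arrays (0.37). Single arrays also passed Dhcr7 at -0.48 (SS-13BN/Mcw, 3 days), -0.44 (SS-13BN/Mcw, overnight) and -0.22 (mean), and Msmo1 at 0.31 (SS-13BN/Mcw, overnight).

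Counts of all probes past the threshold moved for SS at 3 days (3) to 9 scaled, 16 by quantiles, 344 turned, 40 with single arrays, 1 with all pairs required and 5 with the replicate block. For SS overnight (13) they moved to 51 scaled, 68 by quantiles, 325 turned and 74 with single arrays, and for SS-13BN/Mcw at 3 days (27) to 61, 66, 299 and 58. For SS-13BN/Mcw overnight (116) it was 309 turned and 227 with single arrays, for the strain difference at 3 days (0) 7 scaled, 6 by quantiles and 7 with single arrays, for time in SS-13BN/Mcw (0) 9 with single arrays, and for the mean (234) 568 turned. Cholesterol list counts were 2 scaled, 2 by quantiles, 1 turned and 2 with single arrays in SS overnight (0), 1 with single arrays in SS-13BN/Mcw at 3 days (0), 1 as deposited, 2 by quantiles, 4 with single arrays and 1 with all pairs required in SS-13BN/Mcw overnight (0), and 1 with all pairs required and 1 with the replicate block in the mean (2). The replicate block changed no other call of the genes named here except Cyp51 (adjusted p = 0.0546).

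Leaving out 1 pair gave, for Mvd, -0.26 to 0.043 (SS, 3 days), -0.14 to 0.22 (SS-13BN/Mcw, 3 days), -0.33 to 0.035 (strain, 3 days) and -0.36 to 0.0023 (time, SS-13BN/Mcw). For Msmo1 it gave -0.046 to 0.11 (SS-13BN/Mcw, 3 days) and -0.16 to 0.088 (strain, overnight), and for Dhcr7 -0.71 to -0.18 (SS-13BN/Mcw, overnight), -0.30 to 0.23 (time, SS-13BN/Mcw) and -0.29 to -0.16 (mean). Counts of all probes ranged from 0 to 9 (SS, 3 days), 0 to 21 (SS, overnight), 0 to 50 (SS-13BN/Mcw, 3 days), 12 to 144 (SS-13BN/Mcw, overnight) and 0 to 1 (strain at 3 days, and time in SS-13BN/Mcw). Cholesterol list counts ranged from 0 to 1 (SS-13BN/Mcw, overnight) and 1 to 3 (mean).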
